A study of Homo sapiens with 12 samples.

Results

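KLF9, KLF15, ZBTB16, BCL6, CEBPD and CEBPB are transcription factor genes known from other tissues as secondary factors of the glucocorticoid response. They were taken as a list of 6 and matched by symbol to the 63925 gene IDs of the count files. All 6 were found, and all 6 were among the 17819 genes with enough reads to be tested. RNA with a poly(A) tail had been counted in 12 neural cultures, 6 made from H9 and 6 from H1, which are established human embryonic stem cell lines. In each line 3 sister cultures had received the synthetic glucocorticoid dexamethasone at 1 µM for 6 h and 3 had received the DMSO vehicle for 6 h. The groups were thus H9 dexamethasone, H9 vehicle, H1 dexamethasone and H1 vehicle. Every culture had been differentiated for 10 weeks by dual SMAD inhibition, and every culture was kept in a neural medium with B-27 supplement, cyclic AMP, ascorbic acid, BDNF and GDNF. Standard B-27 is known to contain corticosterone, and the labels do not give the formulation. Because the replicates of a group are sister cultures, every p-value below measures the spread between sister cultures and not between differentiations.

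The glucocorticoid receptor is a transcription factor that moves to the nucleus on binding hormone and activates genes that carry its response element. Some of these genes encode transcription factors, which then change further genes in a second wave. KLF9 and KLF15 belong to the Krüppel-like zinc finger family, which binds GC-rich and CACCC boxes. ZBTB16, also called PLZF, and BCL6 are zinc finger repressors that recruit corepressor complexes through a BTB domain. CEBPD and CEBPB are basic leucine zipper factors of the C/EBP family, known for acute phase and fat cell genes.

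Total counts were 20871163 to 27505804 in 11 of the libraries and 14751168 in H9 vehicle culture 3. That culture also stood apart from its sisters in other ways. Mitochondrially encoded genes took 0.607% of its counts, against 4.80% to 5.64% in the remaining H9 cultures and 2.91% to 3.23% in H1 cultures. It differed from the mean of its sisters by 0.853 on the log2 scale (root mean square over genes). H9 vehicle cultures 1 and 2, whose sisters include culture 3, differed by 0.511 and 0.481. Libraries of the other groups differed from the mean of their sisters by 0.2681 to 0.3085. Many tests are therefore also given without H9 vehicle culture 3. Neuron markers summed to 3959 to 7000 CPM (counts scaled to library size) in the 12 libraries, with all 10 genes of the list tested. Among these TUBB3 had at most 17 counts in any library, which was not read as absence. Of 9 radial glia markers 7 were tested, and SOX2 and HES5 were listed at 0 in all libraries, which was not read as absence. In such bulk samples, fewer cells of a type and less RNA per cell cannot be told apart.

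The promoters of KLF9, KLF15, BCL6 and CEBPB are printed because 3 of these genes had higher RNA in every dexamethasone culture of both lines and CEBPB did not. Each is the window from 250 bases before to 50 after a gene start, on the strand of the gene, from RefSeq on GRCh38.p14. RefSeq windows matched 4 of the 6 genes, and ZBTB16 and CEBPD were not among them. Both strands were searched for the single hexamer AGAACA, for the full palindromic response element of AGAACA, any 3 bases and TGTTCT, which contains that hexamer, the C/EBP site TTGCNNAA, the KLF box CACCC and the BCL6 site TTCCTAGAA. Capitals mark a match.
KLF9, chr9:70414608-70414907, minus strand: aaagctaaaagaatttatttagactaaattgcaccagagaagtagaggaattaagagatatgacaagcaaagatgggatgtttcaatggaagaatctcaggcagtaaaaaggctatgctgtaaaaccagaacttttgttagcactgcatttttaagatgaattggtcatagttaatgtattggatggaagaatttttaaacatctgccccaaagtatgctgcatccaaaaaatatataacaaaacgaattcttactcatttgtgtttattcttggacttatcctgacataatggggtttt
KLF15, chr3:126357359-126357658, minus strand: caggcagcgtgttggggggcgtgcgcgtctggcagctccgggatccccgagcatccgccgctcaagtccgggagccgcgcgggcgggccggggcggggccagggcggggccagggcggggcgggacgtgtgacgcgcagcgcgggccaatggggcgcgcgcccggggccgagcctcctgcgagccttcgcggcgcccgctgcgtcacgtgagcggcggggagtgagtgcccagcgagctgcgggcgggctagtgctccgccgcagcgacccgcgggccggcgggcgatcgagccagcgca
BCL6, chr3:187745419-187745718, minus strand: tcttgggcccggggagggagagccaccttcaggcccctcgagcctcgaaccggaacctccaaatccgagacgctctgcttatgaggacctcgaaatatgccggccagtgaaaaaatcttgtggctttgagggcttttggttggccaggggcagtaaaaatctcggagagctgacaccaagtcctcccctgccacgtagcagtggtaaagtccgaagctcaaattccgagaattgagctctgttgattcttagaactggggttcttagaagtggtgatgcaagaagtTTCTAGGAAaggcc
CEBPB, chr20:50190580-50190879, plus strand: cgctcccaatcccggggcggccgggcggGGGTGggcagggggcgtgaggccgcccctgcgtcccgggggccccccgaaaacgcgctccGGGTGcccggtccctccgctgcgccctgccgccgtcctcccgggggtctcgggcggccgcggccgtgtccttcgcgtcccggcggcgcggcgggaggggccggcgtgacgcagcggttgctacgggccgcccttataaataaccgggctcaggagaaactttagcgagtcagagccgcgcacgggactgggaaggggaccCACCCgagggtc
The KLF9 window had a GC content of 32.7% and the KLF15 window one of 80.3%, against a median of 58.7% over the 35116 windows of the table. Neither held any of the 5 motifs. The BCL6 window held 1 BCL6 site, at position 37 counted from the start, a motif found in 131 windows or 0.373% of all. The CEBPB window held 3 KLF boxes, at positions -222, -162 and 39, and 59.9% of all windows held at least 1. BCL6 and CEBPB each have a further RefSeq start. The other BCL6 window, chr3:187736452-187736751, held AGAACA at position 31, as 14.8% of all windows hold at least 1, and the other CEBPB window held a KLF box already counted above. The full response element was found in 1 window of the whole table and in none of these, which says only that the letters are not in these 300 bases.

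Dexamethasone raised KLF9 and KLF15 over both lines. ZBTB16 had the largest fold change of the 6 and the widest SE, and missed the threshold, as did CEBPD and BCL6 with smaller changes. CEBPB was nearly level. With H9 vehicle culture 3 left out, 5 of the 6 passed, all higher with dexamethasone. By edgeR's quasi-likelihood test with Benjamini-Hochberg adjustment at 0.05, 2 of 6 passed over both lines, against 0.0954% of all tested genes that rose. Without H9 vehicle culture 3 the count of 5 of 6 stood against 0.486% of tested genes. Without regard to any test, 5 of 6 had every dexamethasone library above every vehicle library in both H9 and H1, as did 0.763% of tested genes, or 1.15% with that culture set aside. DESeq2 called 5 of 6 over both lines, against 0.481% of its tested genes.

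**Figure D1:**
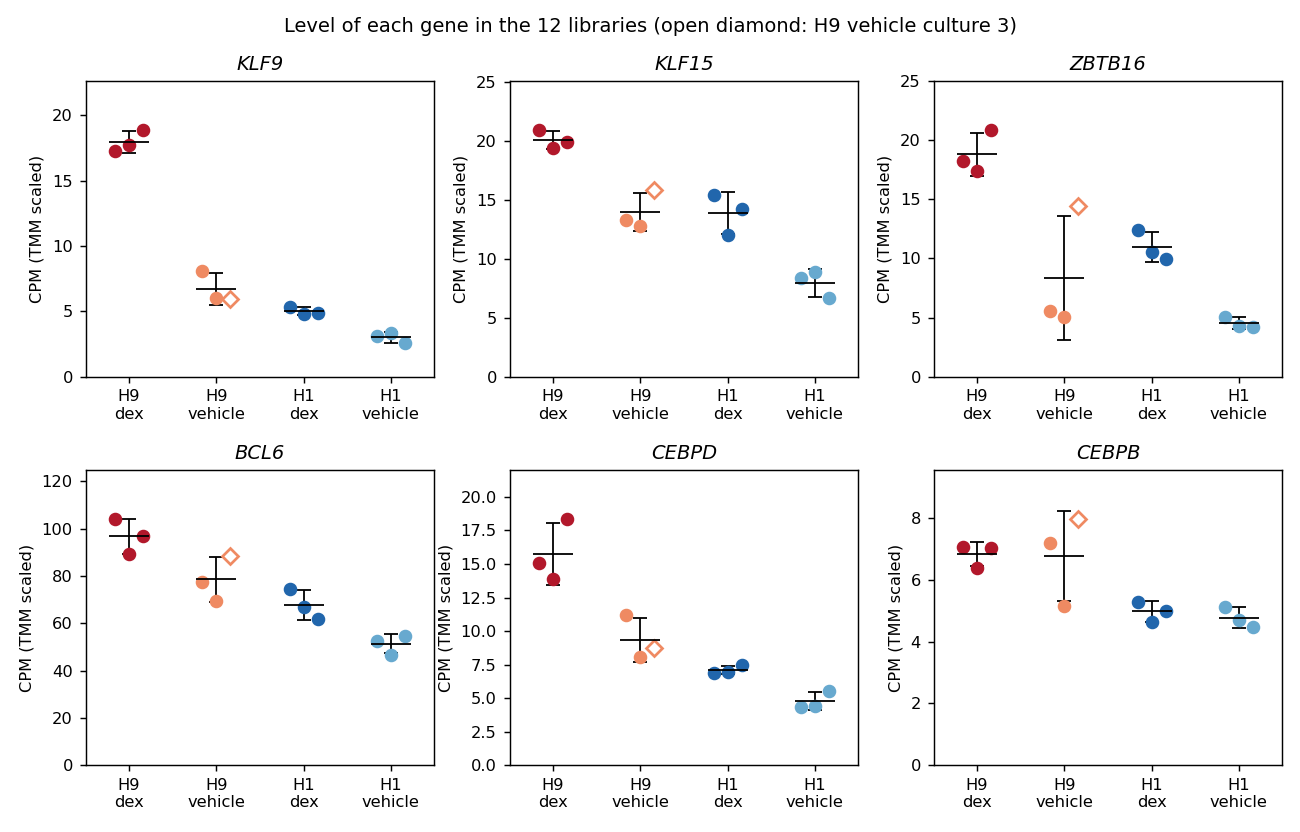
Level of each of the 6 genes in the 12 libraries, in CPM scaled by TMM. Points are cultures, horizontal bars are group means and whiskers are SD (n = 3 cultures each); the open diamond is H9 vehicle culture 3, which for ZBTB16 lies at 14.4 CPM, above its sisters.

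KLF9, a repressor and activator of the Krüppel-like family that is known as an early glucocorticoid target in brain and skin, is annotated on chromosome 9 from 70384597 to 70414624, minus strand (GRCh38, GENCODE 29). It had 17.2, 17.7 and 18.8 CPM in H9 dexamethasone cultures, against 8.11, 6.06 and 5.92 CPM in H9 vehicle cultures. In H1 it had 5.37, 4.79 and 4.88 CPM with dexamethasone, against 3.14, 3.36 and 2.56 CPM with vehicle. The treatments did not overlap in either line, and the vehicle cultures of H9 lay above the dexamethasone cultures of H1. Over both lines the log2 fold change was 1.07 ± 0.11 (SE; adjusted p = 0.00097, edgeR), and it passed in all 12 fits that left out 1 library. In H9 it was 1.41 ± 0.15 (adjusted p = 0.0029, edgeR). A fit of the 6 H9 libraries alone gave 1.43 for KLF9 with adjusted p = 0.26. In H1 the change of KLF9 was 0.73 ± 0.16 and did not pass (adjusted p = 0.51, edgeR), but passed without H9 vehicle culture 3 (0.73, adjusted p = 0.048).

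KLF15, known in liver, muscle and heart as a regulator of amino acid breakdown and glucose production, is annotated on chromosome 3 from 126342635 to 126357442, minus strand. Its level was 20.9, 19.4 and 20.0 CPM in H9 dexamethasone cultures and 13.3, 12.8 and 15.8 CPM in H9 vehicle cultures. In H1 cultures it was 15.5, 12.01 and 14.3 CPM with dexamethasone and 8.35, 8.90 and 6.65 CPM with vehicle. Neither line showed overlap between treatments. KLF15 differed from KLF9 in that H1 dexamethasone cultures reached the range of H9 vehicle cultures. The change over both lines was 0.66 ± 0.10 (adjusted p = 0.026, edgeR). Of the 12 fits with a library set aside it passed in 2, with adjusted p up to 0.11, and without H9 vehicle culture 3 it was 0.71 (adjusted p = 0.00039). Within a line it did not pass, with 0.53 ± 0.14 in H9 (adjusted p = 0.29, edgeR) and 0.80 ± 0.14 in H1 (adjusted p = 0.17, edgeR). Without H9 vehicle culture 3 the value in H1 was 0.80 with adjusted p = 0.0042, and that in H9 was 0.62 with adjusted p = 0.052.

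ZBTB16, a BTB zinc finger factor known in endometrial cells as strongly induced by glucocorticoids and progestins, spans chromosome 11 from 114059593 to 114250676, plus strand. It had 18.2, 17.4 and 20.8 CPM in H9 dexamethasone cultures, against 5.56, 5.05 and 14.4 CPM in H9 vehicle cultures 1 to 3. In H1 it had 12.4, 10.6 and 9.96 CPM with dexamethasone, against 5.09, 4.28 and 4.20 CPM with vehicle. The treatments did not overlap in either line, yet H9 vehicle culture 3 lay closer to the dexamethasone cultures than to its sisters, at 2.72 times their mean. Over both lines the change was 1.24 ± 0.22 (adjusted p = 0.092, edgeR), and without that culture it was 1.55 ± 0.09 (adjusted p = 7.3e-08). In H9 the values were 1.21 ± 0.31 with it (adjusted p = 0.29, edgeR) and 1.83 ± 0.14 without it (adjusted p = 3.3e-06). In H1 the change was 1.28 ± 0.32 (adjusted p = 0.71, edgeR). With the spread estimated without H9 vehicle culture 3 the same change in H1 had an SE of 0.13 (adjusted p = 6.6e-05). An antisense gene on the other strand, from 114210616 to 114250676, had 1 to 13 counts per library, against 105 to 543 for ZBTB16.

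BCL6, the repressor known from germinal centre B cells and, in mouse, from the onset of neurogenesis, is annotated on chromosome 3 from 187721377 to 187745727, minus strand. It was the most abundant of the 6, with 104, 89.3 and 96.9 CPM in H9 dexamethasone cultures and 77.4, 69.6 and 88.6 CPM in H9 vehicle cultures. In H1 it had 74.5, 66.97 and 62.0 CPM with dexamethasone and 52.7, 46.8 and 54.6 CPM with vehicle. The lowest dexamethasone library came close to the highest vehicle library in H9, at 89.3 against 88.6 CPM, and the gap was wider in H1. The change over both lines was 0.35 ± 0.08 (adjusted p = 0.24, edgeR). Without H9 vehicle culture 3 it was 0.40 ± 0.06 (adjusted p = 0.0039), the only fit of the 12 that left out 1 library in which BCL6 passed. In H9 it was 0.30 ± 0.12 (adjusted p = 0.30, edgeR) and in H1 0.40 ± 0.12 (adjusted p = 1, edgeR). Without H9 vehicle culture 3 the change of BCL6 was 0.40 in both H9 (adjusted p = 0.083, edgeR) and H1 (adjusted p = 0.052, edgeR).

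CEBPD, a C/EBP factor known to be induced early by glucocorticoids in fat cell precursors and by inflammation in astrocytes, lies on chromosome 8 from 47736909 to 47739086, minus strand. Its level was 15.1, 13.9 and 18.3 CPM in H9 dexamethasone cultures, against 11.2, 8.10 and 8.77 CPM in H9 vehicle cultures. In H1 it was 6.88, 6.97 and 7.46 CPM with dexamethasone, against 4.37, 4.43 and 5.57 CPM with vehicle. Treatments did not overlap in either line, and all H9 libraries lay above all H1 libraries. The change over both lines was 0.66 ± 0.11 and did not pass (adjusted p = 0.080, edgeR). It passed without H9 vehicle culture 3 (0.64, adjusted p = 0.0084) and also without H9 vehicle culture 1, the highest of its group. Its values within a line were 0.75 ± 0.16 in H9 (adjusted p = 0.27, edgeR) and 0.57 ± 0.17 in H1 (adjusted p = 1, edgeR). Without H9 vehicle culture 3 they were 0.71 in H9 (adjusted p = 0.069, edgeR) and 0.57 in H1 (adjusted p = 0.15, edgeR).

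CEBPB, the sister factor of CEBPD in fat cell formation and liver, lies on chromosome 20 from 50190734 to 50192689, plus strand. It had 7.06, 6.39 and 7.02 CPM in H9 dexamethasone cultures and 7.18, 5.14 and 7.96 CPM in H9 vehicle cultures. In H1 it had 5.29, 4.62 and 5.001 CPM with dexamethasone and 5.13, 4.70 and 4.49 CPM with vehicle. The treatments overlapped in both lines. The change over both lines was 0.04 ± 0.11 (adjusted p = 0.89, edgeR), 0.02 ± 0.16 in H9 and 0.06 ± 0.16 in H1. Leaving out single libraries moved the value over both lines between -0.04 and 0.10, and none of these fits passed. CEBPB-AS1 overlaps CEBPB on the other strand and had 23 to 56 counts per library, against 112 to 183 for CEBPB. The strand setting of the counting is not given in the sources used here, so reads of the 2 genes may not be separated.

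**Figure D2:**
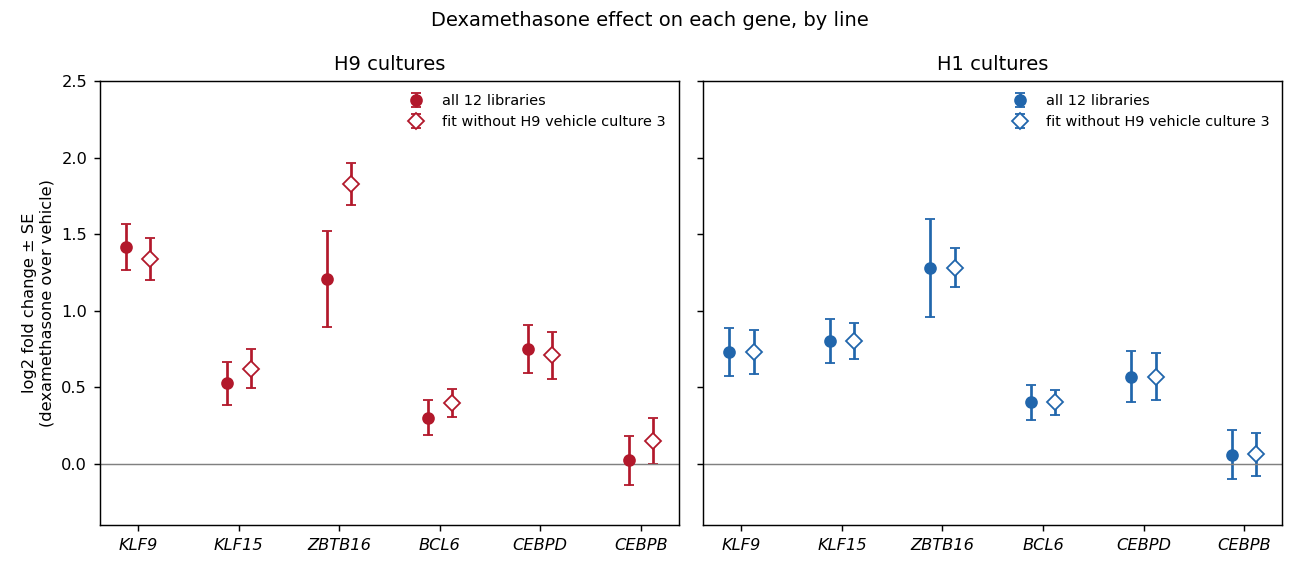
Log2 fold change of dexamethasone over vehicle for each of the 6 genes, with SE from edgeR, in H9 (left) and H1 (right). Filled circles are the fit of all 12 libraries and open diamonds the fit without H9 vehicle culture 3, which moved ZBTB16 in H9 to 1.83, against 1.21 with it, and narrowed the SE of ZBTB16 in H1.

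Within a single line the counts were smaller. In H9 KLF9 was the only 1 of the 6 to pass, against 0.0673% of all tested genes, and ZBTB16 joined it without H9 vehicle culture 3, when 0.254% of tested genes rose. DESeq2 called 4 of 6 in H9, against 0.469% of its tested genes. In H1 none of the 6 passed, against 0.0505% of tested genes, although all 6 had a log2 change above 0 and 526 of all genes had an unadjusted p under 0.05 by edgeR. DESeq2 called KLF9, KLF15 and ZBTB16 in H1, against 0.0937% of its tested genes, and these same 3 passed in edgeR without H9 vehicle culture 3, against 0.166%. Libraries that did not overlap between treatments, dexamethasone higher, were found for 5 of 6 genes in H9 and 5 of 6 in H1, and for 9.76% of tested genes in H9 and 7.15% in H1.

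Whether the lines differed in their response was tested as the difference of the effects, H9 minus H1. No gene among the 17819 passed in edgeR, and none in DESeq2, while 1329 had an unadjusted p under 0.05 in edgeR. KLF9 had the largest difference of the 6, at 0.68 ± 0.22 (unadjusted p = 0.0083, adjusted p = 0.55, edgeR), with an effect of 1.41 in H9 and 0.73 in H1. KLF15 went the other way, at -0.28 ± 0.20. The difference for ZBTB16 was -0.07 ± 0.44, and 0.54 ± 0.19 without H9 vehicle culture 3 (unadjusted p = 0.010, adjusted p = 0.40, edgeR). It was also above 0, at 0.026, without H1 dexamethasone culture 1, so that difference had no settled direction. CEBPD differed by 0.18 ± 0.23, CEBPB by -0.04 ± 0.23 and BCL6 by -0.10 ± 0.16.

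Ratios between genes of a family were taken from the counts within each library, so that they do not depend on library size. They were formed after the values had been seen, so they carry no test. CEBPD stood at 2.13, 2.17 and 2.61 times CEBPB in H9 dexamethasone cultures, against 1.56, 1.57 and 1.10 times in H9 vehicle cultures. In H1 the ratio was 1.30, 1.51 and 1.49 with dexamethasone, against 0.852, 0.943 and 1.24 with vehicle. The ratio of CEBPD to CEBPB was thus higher in every dexamethasone culture than in every vehicle culture of its line. ZBTB16 relative to BCL6 was 0.175, 0.195 and 0.215 in H9 dexamethasone cultures, against 0.0720, 0.0729 and 0.163 in H9 vehicle cultures. In H1 that ratio was 0.167, 0.158 and 0.161 with dexamethasone, against 0.0969, 0.0918 and 0.0773 with vehicle. All 6 dexamethasone cultures thus lay between 0.158 and 0.215, and all vehicle cultures but H9 culture 3 between 0.0720 and 0.0969. KLF9 relative to KLF15 was 0.823, 0.912 and 0.944 in H9 dexamethasone cultures, against 0.610, 0.473 and 0.375 in H9 vehicle cultures. In H1 it was 0.348, 0.400 and 0.343 with dexamethasone and 0.377, 0.379 and 0.387 with vehicle, where the treatments overlapped.

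**Figure D3:**
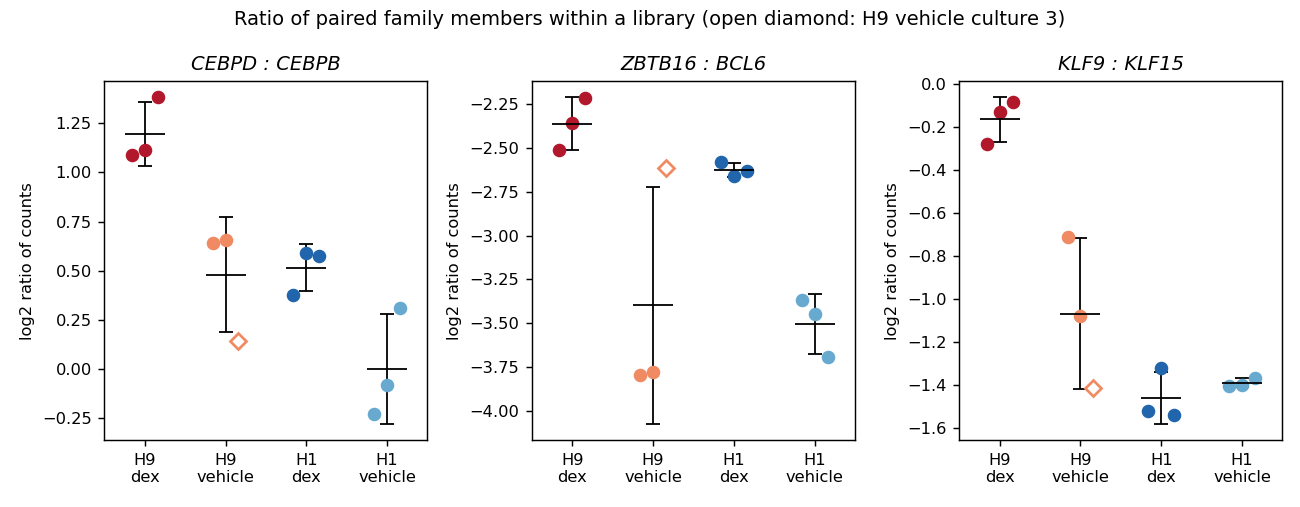
Log2 ratio of the counts of paired family members within each library, by group, with the mean and SD of the 3 cultures (n = 3 each). The open diamond is H9 vehicle culture 3, whose ratio of ZBTB16 to BCL6, 0.163, lies at the level of the H1 dexamethasone cultures.

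H9 cultures had the higher mean level of all 6 genes under both treatments. For 5 of them the difference passed under both treatments, and for ZBTB16 it passed only under vehicle in the fit of all 12 libraries. Without H9 vehicle culture 3 the ZBTB16 difference passed only under dexamethasone instead. In the fit of all 12 libraries 5 of the 6 genes passed as higher in H9 under dexamethasone, against 22.5% of all tested genes. Under vehicle 6 of 6 passed in that fit, against 25.7%. Large shares of all genes differed between the lines, 43.6% under dexamethasone and 46.9% under vehicle in either direction. Under dexamethasone the H9 libraries lay above the H1 libraries for all 6 genes (33.7% of tested genes), and under vehicle for all but ZBTB16 (27.5%).

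KLF9 differed most, with 17.9 ± 0.83 CPM in H9 and 5.01 ± 0.31 CPM in H1 under dexamethasone (SD, n = 3 each; log2 difference 1.84 ± 0.15 SE, adjusted p = 2.2e-06, edgeR). Under vehicle it had 6.69 ± 1.2 CPM in H9 and 3.02 ± 0.41 CPM in H1 (1.15 ± 0.16, adjusted p = 0.00012, edgeR). CEBPD came next, at 1.15 ± 0.16 under dexamethasone (adjusted p = 0.00013, edgeR) and 0.97 ± 0.17 under vehicle (adjusted p = 0.00057). KLF15 differed by 0.53 ± 0.14 under dexamethasone (adjusted p = 0.0088, edgeR) and 0.81 ± 0.14 under vehicle (adjusted p = 0.00076), and BCL6 by 0.51 ± 0.12 (adjusted p = 0.0036) and 0.61 ± 0.12 (adjusted p = 0.0012). These 4 genes passed under both treatments in all 12 fits that left out 1 library. CEBPB was higher in H9 by 0.46 ± 0.16 under dexamethasone (adjusted p = 0.038, edgeR) and 0.49 ± 0.16 under vehicle (adjusted p = 0.026), passing in 3 and in 9 of those 12 fits.

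For ZBTB16 the comparison of the lines lay close to the threshold under both treatments. Under vehicle its difference was 0.85 ± 0.33 (adjusted p = 0.049, edgeR), and without H9 vehicle culture 3 it was 0.23 ± 0.15 (adjusted p = 0.20). Under vehicle it passed in 2 of the 12 fits with a library set aside, those without H9 vehicle culture 1 or 2, where the difference was up to 1.11. Under dexamethasone it was 0.78 ± 0.30 (adjusted p = 0.056, edgeR), and with the spread estimated without that culture 0.78 ± 0.11 (adjusted p = 1.7e-05). It also passed under dexamethasone without H9 vehicle culture 1 or 2, and in none of the other 9 fits. With H9 vehicle culture 3 left out 6 of 6 genes passed under dexamethasone, against 31.9% of tested genes, and 5 of 6 under vehicle, against 30.1%.

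**Figure D4:**
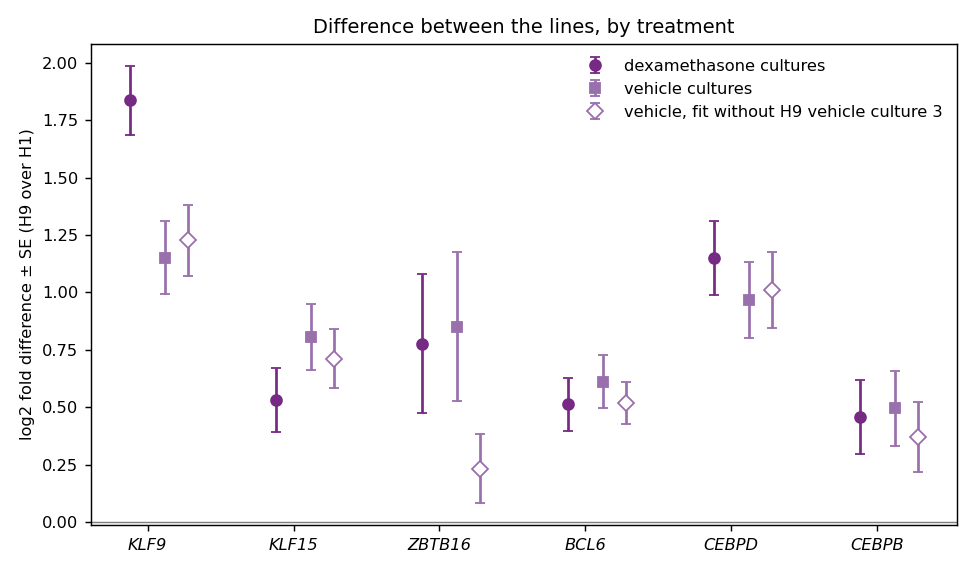
Log2 difference of H9 over H1 with SE from edgeR for each of the 6 genes, in dexamethasone cultures (circles) and vehicle cultures (squares). Open diamonds are the vehicle comparison in the fit without H9 vehicle culture 3, where ZBTB16 lies at 0.23.

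The lines also differed in their markers of cell types, which bears on every comparison of H9 with H1. Of 10 astrocyte markers 9 were tested, and ALDOC was listed at 0 in all libraries. Their summed level was 1788 to 2233 CPM in H9 dexamethasone cultures, 1304 to 1917 CPM in H9 vehicle cultures, 787 to 802 CPM in H1 dexamethasone cultures and 838 to 939 CPM in H1 vehicle cultures. SPARCL1 alone had a mean of 893 CPM in H9 vehicle and 223 CPM in H1 vehicle cultures. Under vehicle AQP4, ALDH1L1, AGT and CD44 also had the higher mean in H9. GFAP, S100B, SLC1A2 and GJA1 did not, with 131, 46.4, 170 and 209 CPM in H9 vehicle cultures. In H1 vehicle cultures these had 146, 56.7, 174 and 210 CPM. The 10 mesenchymal markers summed to 444 to 516 and 443 to 528 CPM in H9 dexamethasone and vehicle cultures, and to 1750 to 3518 and 2227 to 3721 CPM in the same treatments of H1. The 9 markers of dividing cells summed to 85.9 to 136 CPM in H9 and to 558 to 648 CPM in H1. The part of these cell types in the line differences of the 6 genes was not tested. Between treatments of a line the summed levels of these 3 lists overlapped, except that the astrocyte list was lower with dexamethasone in H1. The neuron list did not overlap between treatments in H9, with 6825 to 7000 CPM in dexamethasone cultures and 5823 to 6325 CPM in vehicle cultures, and overlapped in H1. No marker of these 4 lists passed over both lines in edgeR, with 9 at an unadjusted p under 0.05, and DESeq2 called 2, the astrocyte marker ALDH1L1 (1.08, adjusted p = 7.6e-05) and the mesenchymal marker PDGFRB (-0.38, adjusted p = 0.036). In the fit without H9 vehicle culture 3 edgeR called 5, with ALDH1L1 (1.24), NEFL (0.25) and NEFM (0.23) higher and S100B (-0.26) and PDGFRB (-0.34) lower. Of 7 choroid plexus markers 6 were tested, and they summed to 72.9 to 191 CPM in H9 dexamethasone, 44.7 to 174 CPM in H9 vehicle, 48.8 to 69.9 CPM in H1 dexamethasone and 54.3 to 65.8 CPM in H1 vehicle cultures. None passed in edgeR, with 2 at an unadjusted p under 0.05. The water channel gene AQP1 passed in DESeq2 (0.78, adjusted p = 0.0048) and in edgeR without H9 vehicle culture 3 (0.80, adjusted p = 0.025), where the potassium channel gene KCNJ13 was lower (-0.94, adjusted p = 0.016). The part of these shifts in the dexamethasone changes was not tested. Of the 7 microglia markers none was tested, and they summed to under 1 CPM in every library. AIF1 was listed at 0 in all libraries, which was not read as absence.

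Compared per kilobase of exon, which allows levels of different genes to be set side by side, BCL6 was highest in all 4 groups. It had 16.3 CPM per kb in H9 dexamethasone, 13.2 in H9 vehicle, 11.4 in H1 dexamethasone and 8.65 in H1 vehicle cultures. KLF9 was lowest in 3 groups, with 1.29 CPM per kb in H9 vehicle, 0.969 in H1 dexamethasone and 0.584 in H1 vehicle cultures. In H9 dexamethasone cultures ZBTB16 was lowest, with 2.95 CPM per kb, below KLF9 with 3.46. In H9 vehicle cultures KLF9 and ZBTB16 overlapped, so their order there is not resolved. KLF15 and CEBPD lay between, at 7.06 and 7.23 CPM per kb in H9 dexamethasone cultures, where their libraries overlapped, and 2.80 and 2.20 CPM per kb in H1 vehicle cultures.

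Within the families of the 6 factors, KLF9 and KLF15 were the only genes that passed over both lines. Of 18 Krüppel-like factors 15 were tested, and KLF9 and KLF15 were the 2 that rose over both lines. The list's median log2 change was 0.17, against -0.01 over all tested genes, and 13 of its 15 values were above 0. Without H9 vehicle culture 3 the median was 0.080 and 12 of 15 were above 0, and in H1 alone the median was 0.04. KLF6, an immediate early factor, had 135 CPM in H9 dexamethasone, 109 in H9 vehicle, 85.8 in H1 dexamethasone and 75.6 in H1 vehicle cultures on average (0.24 ± 0.06, adjusted p = 0.32, edgeR) and passed without H9 vehicle culture 3 (0.21, adjusted p = 0.020). Of 6 C/EBP factors 5 were tested and none passed in edgeR, with CEBPD as the 1 gene at an unadjusted p under 0.05 and a list median of 0.04. Of 46 BTB zinc finger genes 39 were tested and none passed in edgeR, with ZBTB16 and BCL6 as the 2 genes at an unadjusted p under 0.05, and the median over the list was 0.04. With H9 vehicle culture 3 left out, and also by DESeq2, KLF6, CEBPD, ZBTB16 and BCL6 were the genes of these families that passed beside KLF9 and KLF15.

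Among 30 other transcription regulators known to respond to glucocorticoids, 28 were tested, 3 rose and 1 fell, with a list median of 0.09, or 0.0090 without H9 vehicle culture 3. HIF3A, a hypoxia-inducible factor subunit, rose by 1.53 ± 0.12 (adjusted p = 7.2e-05, edgeR), and PER1, a clock repressor, by 1.07 ± 0.09 (adjusted p = 0.00031). TSC22D3, which encodes GILZ, rose by 0.53 ± 0.08 (adjusted p = 0.037, edgeR), and the mineralocorticoid receptor gene NR3C2 had a log2 fold change of -0.60 ± 0.09 (adjusted p = 0.024). FOXO1, a forkhead factor of insulin signalling, had 0.39 ± 0.07 (adjusted p = 0.096, edgeR) and passed without H9 vehicle culture 3 (0.37, adjusted p = 0.0084). The number that rose was then 5, KLF6 included, which this list shares with the Krüppel-like factors.

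The listed partners and known targets showed no change that passed in edgeR at 6 h. The partners were those of BCL6, ZBTB16 and KLF9, and the targets those of BCL6, KLF15, CEBPB and CEBPD. Targets of KLF9 and ZBTB16 were not listed. Of 23 corepressor and chromatin partner genes, which include NCOR1, BCOR and the class II deacetylases, all 23 were tested and none passed, with a median of 0.01 and the smallest p for TBL1X (-0.19 ± 0.09, adjusted p = 0.68, edgeR). Of 17 genes that BCL6 is known to repress in B cells or mouse neural progenitors, 15 were tested and none passed in edgeR, with a median of 0.02, or -0.06 without H9 vehicle culture 3, and the smallest p for the survival gene BCL2L1 (0.24 ± 0.07, adjusted p = 0.44). In that list 3 genes had an unadjusted p under 0.05, and DESeq2 called 1 of 16, namely BCL2L1 (0.26, adjusted p = 0.021). Of 14 metabolic genes known to be regulated by KLF15 in liver and muscle, 11 were tested and none passed, with a median of 0.13 and TAT, the tyrosine aminotransferase, at 0.73 ± 0.43 (adjusted p = 0.70, edgeR). Of 18 acute phase and fat cell genes known as targets of CEBPB or CEBPD, 4 had enough reads to be tested and none passed, so the list says little here. PTX3, an acute phase pattern recognition protein, had -0.14 ± 0.11. In the lists of partners, KLF15 targets and C/EBP targets 0 genes had an unadjusted p under 0.05, and DESeq2 called 0. Over both lines, 1335 of all genes had an unadjusted p under 0.05 by edgeR, and 17 of 17819, or 0.0954%, passed as higher. At that share, lists of this size without a call cannot be told from all genes. Without H9 vehicle culture 3 none of these 4 lists gained a call, when 0.486% of tested genes passed as higher.

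**Figure D5:**
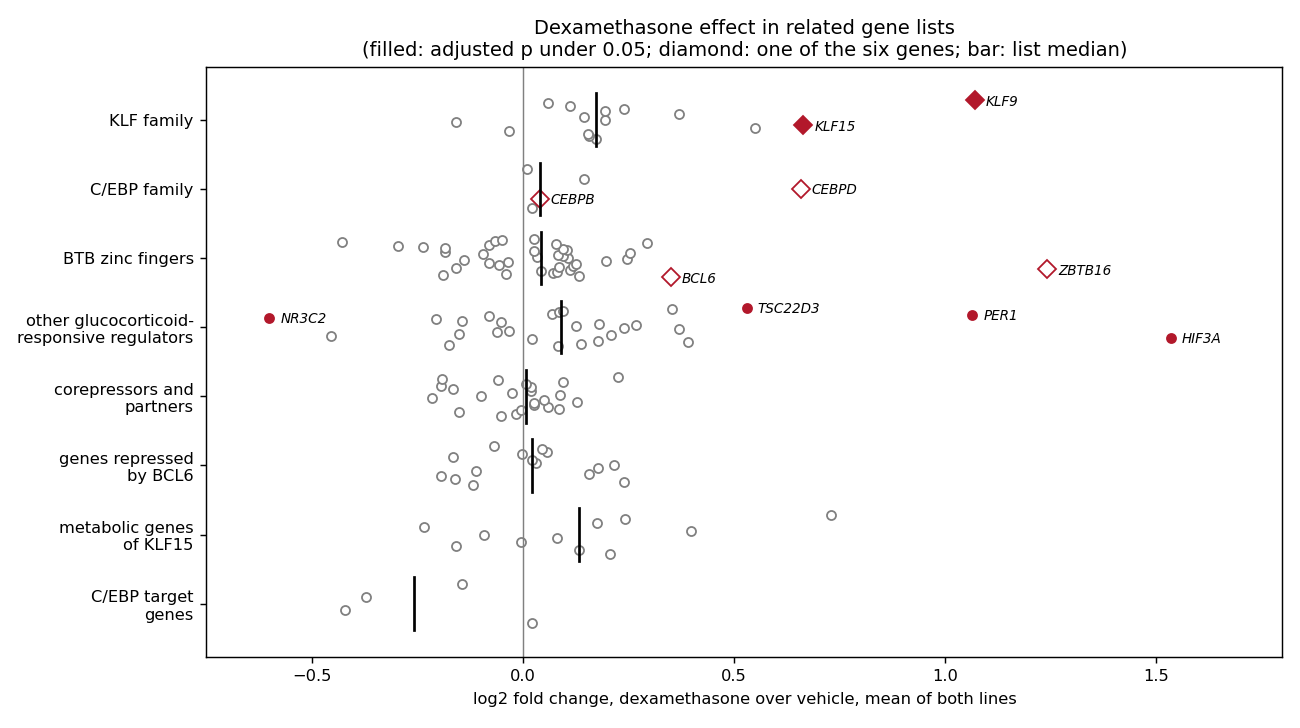
Log2 fold change of dexamethasone over vehicle, mean of both lines by edgeR, for the tested genes of 8 lists; filled symbols passed at adjusted p under 0.05 and diamonds are the 6 genes. Vertical bars are list medians, which lie between -0.26 for the 4 C/EBP target genes and 0.17 for the Krüppel-like factors, the last of which was 0.080 without H9 vehicle culture 3.

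Between the lines under vehicle the related lists were read against the 25.7% of all tested genes that were higher in H9 and the 21.2% that were lower, or 30.1% and 28.6% without H9 vehicle culture 3. Of 15 Krüppel-like factors 6 were higher in H9 and 1 lower, namely KLF7 (-0.55 ± 0.12, adjusted p = 0.0028, edgeR), which is named after its values were seen. Without H9 vehicle culture 3 edgeR also called KLF10 (0.48, adjusted p = 0.00068), KLF8 (0.49, adjusted p = 0.030) and KLF2 (0.77, adjusted p = 0.033) as higher in H9. KLF5, a factor of epithelial cells, was higher in H9 by 1.25 ± 0.18, and KLF6 by 0.53 ± 0.09. Of 5 C/EBP genes 4 were higher, CEBPA by 1.28 ± 0.19 (adjusted p = 0.00023, edgeR) and the stress factor DDIT3 by 0.78 ± 0.10 (adjusted p = 9.9e-05), and CEBPG was lower (-0.55 ± 0.12). Of 39 BTB zinc finger genes 7 were higher and 14 lower, or 8 and 18 without H9 vehicle culture 3. ZBTB18, a repressor known from development of the mouse cortex, stood at -0.67 ± 0.08 (adjusted p = 5.65e-05, edgeR) and ZBTB7C at 0.96 ± 0.15 (adjusted p = 0.00035). Of the 28 other glucocorticoid-responsive regulators 18 were higher and 4 lower, with the immediate early genes JUNB and NR4A1 at 1.78 ± 0.12 and 1.83 ± 0.14. Of 23 corepressor and partner genes 4 were higher, among them TBL1X (1.38 ± 0.13) and HDAC5 (1.43 ± 0.17), and 7 were lower. Without H9 vehicle culture 3 the number lower in H9 was 12. Of the genes repressed by BCL6 elsewhere, 4 of 15 were higher and 4 lower, both near the shares of all genes, and without that culture 7 were higher and 4 lower. The cell cycle kinase gene CHEK1 stood at -2.25 ± 0.19 (adjusted p = 3.0e-06, edgeR). Of the 11 metabolic genes of KLF15, the fatty acid transport enzyme gene CPT1A was higher in H9 (0.86 ± 0.15, adjusted p = 0.00075, edgeR) and BCAT1, which acts on branched-chain amino acids, was lower (-1.66 ± 0.16, adjusted p = 7.9e-06). BCKDHB, a subunit gene of the enzyme complex for branched-chain keto acids, was also higher when H9 vehicle culture 3 was left out (0.35, adjusted p = 0.0032). All 4 tested C/EBP targets were higher, CEBPA among them, with the lipase inhibitor G0S2 at 3.33 ± 0.43 (adjusted p = 8.0e-05, edgeR). G0S2 rests on few reads, with means of 1.45 CPM in H9 vehicle and 0.134 CPM in H1 vehicle cultures and at most 33 counts per library.

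Other genes were ranked by how closely their pattern over the 12 libraries followed that of each factor, as the root mean square difference of centred log2 CPM among 14967 genes, a description with no test. ZBTB16 was closest to PER1 (0.298), HIF3A (0.355) and RASSF4 (0.401), and 2 of these 3 stayed among its closest 3 without H9 vehicle culture 3. CEBPD was closest to CAVIN2 (0.196), IL1R1 (0.203) and FOXO1 (0.209). KLF15 was closest to CAVIN2 (0.208), SMOX (0.215) and TIMP4 (0.221), so CAVIN2 headed both lists. Without H9 vehicle culture 3 it headed neither, with SMOX first for KLF15 and IL1R1 first for CEBPD. BCL6 was closest to the potassium channel gene KCNN3 (0.0788), ZHX3 (0.107) and PDE4DIPP2 (0.117). For CEBPD, KLF15 and BCL6, 2 of the 3 also remained without that culture. KLF9 was closest to NAV2-AS6 (0.300), TENT5B (0.324) and CEBPD (0.372), and CEBPB to MAN2B1 (0.114), ENOX1 (0.115) and EPB41L2 (0.116), and for these factors none of the 3 remained. The typical gene lay at a difference of 0.420 from CEBPB and of 0.980 from KLF9.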

How the data were processed

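Per the labels, 12 libraries of polyadenylated RNA fall into 4 groups of 3 sister cultures by line and condition. The deposited values are raw counts of reads for each gene, whole numbers that had not been normalized, in a file per library. STAR 2.5.3a and HTSeq (no version named) are listed in the submitters' processing notes, with hg38 and GRCh38.p10 as genome builds. Which annotation was counted, whether strand was used and how multiply mapped reads were handled is not given in the sources used here. Gene coordinates come from GENCODE 29 on GRCh38 and count from 1, and promoters are RefSeq windows on GRCh38.p14.

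The 6 genes and all lists were chosen with earlier results of these data known, so no pattern here is independent support for those results. From the counts, genes were filtered by filterByExpr and scaled by TMM in edgeR 4.0.16. The quasi-likelihood F-test was run with 1 mean per group in all 12 libraries (8 residual degrees of freedom), and p-values were adjusted by Benjamini-Hochberg over the 17819 genes tested. SE was taken as the size of the log2 fold change over the root of its F statistic. CPM values were computed here from TMM-scaled library sizes, and errors of levels are SD over the 3 cultures. Named genes of a list are the 5 with the smallest p among those that passed, or the 1 with the smallest p where none did. KLF2, KLF6, KLF8, KLF10, FOXO1, BCKDHB, the markers named and the ratios of counts, which add 0.5 to each count, were added after the values were seen. For likeness, log2 CPM was computed with prior count 2 for genes with a mean CPM of at least 1.

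The fits were repeated with DESeq2 1.42.0, limma-voom 3.58.1, RLE size factors, no filter, a minimum of 1 CPM in 3 or more libraries, mitochondrial and the 20 most abundant genes taken out of library sizes, the groups of a contrast alone, a block for culture number, and leaving out libraries one by one. Voom with sample quality weights was added after the data were seen. No flow cell or date is given per library, so no batch was modelled. R 4.3.3, Python 3.11.15 and matplotlib 3.10.9 were used.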

Additional observations from a re-analysis of the deposited data

How the results depend on the processing

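Over both lines, 2 of the 6 genes and 18 of all genes passed. The counts were 5 and 112 with DESeq2, 4 and 30 with no filter, and 5 and 212 with voom quality weights, which were added after the data were seen. In H9, 1 of 6 and 12 of all genes passed, against 4 and 131 with DESeq2, 2 and 24 with no filter, 0 and 2 in the H9 libraries alone and 5 and 263 with quality weights. In H1, 0 of 6 and 9 of all genes passed, against 3 and 25 with DESeq2, 1 of 6 with no filter, 2 and 50 in the H1 libraries alone and 4 and 110 with quality weights. Leaving out each library in turn gave 1 to 5 of the 6 and 10 to 140 of all genes over both lines, 1 to 2 and 6 to 53 in H9, and 0 to 3 and 3 to 59 in H1. Each highest count came without H9 vehicle culture 3. Between the lines, 7777 genes differed under dexamethasone, with 6106 to 11697 when a library was left out, and 8350 under vehicle, with 5284 in the vehicle libraries alone.

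Reversals were of values smaller than their SE in the fit of all 12 libraries. The difference of the effects for ZBTB16 did not stay near 0, at 0.54 ± 0.19 without H9 vehicle culture 3. CEBPB turned to -0.040 over both lines and -0.14 in H9 without H9 vehicle culture 2, and was 0.15 in H9 without culture 3. The difference of the effects, H9 minus H1, turned for ZBTB16 to 0.14 with limma-voom and 0.49 with quality weights. For CEBPB it was 0.013 with no filter and 0.17 with quality weights, and for BCL6 0.059 with quality weights. When a library was left out that difference ran from -0.33 to 0.54 for ZBTB16 and from -0.20 to 0.086 for CEBPB. That difference has no fit in the groups of a contrast alone, since it needs all 4 groups. The cause of these shifts was not tested, beyond the library left out.

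Whether the culture numbers mark shared batches or sources was not tested. Deviations of same-numbered cultures correlated at -0.01, 0.11 and 0.01 in H9 and 0.18, 0.10 and 0.05 in H1. Cultures of unlike number ran from -0.13 to 0.084 in H9 and from -0.18 to 0.073 in H1. Not every culture correlated best with its own number. With the replicate block 1 of the 6 genes passed over both lines, namely KLF9, and the difference of the effects for ZBTB16 turned to 0.050. The 6 genes have 64 to 2524 counts per library, and CPM levels under those of CEBPB leave few counts to resolve small changes.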
